A study of Mus musculus with 18 samples.

Results

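Brain endothelial cells line the capillaries of the brain and, through tight junctions and polarised transporters, form the blood-brain barrier. The 34 genes described here encode receptors, transporters, junction proteins, transcription factors and surface, secreted or matrix proteins of these cells. They were taken by symbol from the deposited table of raw counts, and each of the 34 had a line among its 24062 lines. The rule set no level and no fold change, but the list was drawn up with earlier results of these libraries known. Counts of members past a threshold are therefore given as a description, beside the share of all genes that passed it, and are no test of the list. By role there were 9 receptors, 7 transporters, 5 junction proteins, 5 transcription factors and 8 other surface, secreted or matrix proteins.

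The study compared Chd2+/- mice (HET), which carry a single working copy of the chromatin remodeller Chd2, with wild-type mice (WT) on the C57BL/6 strain. RNA was measured in 18 poly(A)-selected libraries of whole dissected tissue, 3 WT and 3 HET from each of 3 tissues. These were the medial ganglionic eminence (MGE, the embryonic source of cortical interneurons) and the cortex at embryonic day E13.5, and the hippocampus at postnatal day P45. The labels name no other allele and no treatment in any group, and do not say whether the libraries of a group came from separate animals. The p-values therefore reflect the spread among the libraries as sequenced, which may be technical. Library totals were 26841671 to 38802765 counts. Levels are counts relative to the library total after TMM scaling over all 18 libraries (CPM), with SDs over 3 libraries, and levels of different genes are compared per kilobase of merged exon (RPKM).

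Chd2 itself had 154, 161 and 175 CPM in the WT MGE and 139, 136 and 145 CPM in the HET MGE. It had 143, 154 and 145 CPM in the WT cortex and 125 CPM in each HET cortex library. In the hippocampus the WT libraries had 73.4, 69.8 and 78.1 CPM and the HET libraries 63.8, 66.6 and 65.6 CPM. Each HET library lay below every WT library of its tissue, and the log2 fold changes of Chd2 were -0.24 (SE 0.09), -0.22 (SE 0.08) and -0.17 (SE 0.06) in MGE, cortex and hippocampus. The threshold, an adjusted p under 0.05 over all genes by edgeR's quasi-likelihood test, was not reached in any tissue (adjusted p = 0.980, 0.578 and 0.191).

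Vascular endothelial growth factor acts on endothelial cells through Kdr, with Flt1 as a decoy receptor and Flt4 as the lymphatic and tip-cell receptor. Bone morphogenetic proteins act through Acvrl1 and its co-receptor Eng, and angiopoietins through Tek, whose partner is Tie1. Wnt7 ligands of neural cells switch on barrier genes in brain vessels, among them the glucose carrier Slc2a1, the tight junction protein Cldn5 and the lipid transporter Mfsd2a, while the SOX and ETS factors Sox7, Sox17, Sox18, Erg and Fli1 maintain the endothelial state.

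All 34 genes are annotated as protein-coding in GENCODE M21 on GRCm38 (mm10), and Itm2a lies on the X chromosome. Flt1 spans chr5:147561604-147726011 on the minus strand, Eng chr2:32646595-32682669 on the plus strand and Mfsd2a chr4:122946850-122961188 on the minus strand. The promoters of 3 members that were lower together in the HET hippocampus are shown to let their sequence be read beside the values. Each run holds the 250 bases before the RefSeq start on GRCm38.p6, on the strand of the gene, and capitals mark the ETS core AGGAAG or its reverse complement CTTCCT.
Flt1, chr5:147726012-147726261, minus strand: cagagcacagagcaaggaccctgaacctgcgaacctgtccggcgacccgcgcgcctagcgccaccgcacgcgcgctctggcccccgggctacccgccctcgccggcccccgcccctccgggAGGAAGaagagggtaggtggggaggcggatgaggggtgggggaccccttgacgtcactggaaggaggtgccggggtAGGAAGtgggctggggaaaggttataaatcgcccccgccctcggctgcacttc
Eng, chr2:32646345-32646594, plus strand: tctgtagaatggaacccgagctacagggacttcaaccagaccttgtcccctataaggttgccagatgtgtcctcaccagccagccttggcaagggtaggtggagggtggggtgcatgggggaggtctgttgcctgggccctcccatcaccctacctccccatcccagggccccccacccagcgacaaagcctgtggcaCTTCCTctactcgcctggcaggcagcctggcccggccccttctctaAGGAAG
Mfsd2a, chr4:122961189-122961438, minus strand: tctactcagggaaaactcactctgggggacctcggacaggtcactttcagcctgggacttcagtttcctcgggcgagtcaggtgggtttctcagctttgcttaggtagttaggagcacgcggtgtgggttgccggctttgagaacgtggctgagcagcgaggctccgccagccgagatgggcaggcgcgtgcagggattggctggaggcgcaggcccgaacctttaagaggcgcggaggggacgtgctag
RefSeq windows were found for 21 of the 34 members and for 27025 gene symbols in all. A symbol was counted if any of its windows held a match. AGGAAG, searched on both strands, was found for 14 of the 21 members and for 32.3% of all symbols. The Flt1 and Eng windows held it at 2 places each and the Mfsd2a window held none. The longer ETS core CCGGAAG, which does not contain AGGAAG, was found for 0 of the 21 members and for 7.83% of all symbols. The SOX core ACAAT was found for 6 of the 21 and for 30.9% of all symbols, and the TCF/LEF core CTTTGA for 4 of the 21 and for 15.8% of all symbols. These are matches of letters, and no binding was measured.

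The endothelial label was checked on Cdh5, Pecam1, Tie1, Tek, Cldn5, Emcn and Egfl7, which were detected in all 18 libraries. Their group means ran from 3.74 CPM (Emcn, WT hippocampus) to 53.8 CPM (Cldn5, WT cortex). The summed level of the 34 members was 746 to 819 CPM in the WT MGE, 909 to 1160 CPM in the WT cortex and 1058 to 1115 CPM in the WT hippocampus. In the HET groups it was 775 to 795 CPM, 1000 to 1105 CPM and 866 to 915 CPM, so that the HET hippocampus lay below the WT hippocampus without overlap. In whole tissue, fewer endothelial cells, less RNA per cell and a change in other cells that make the same RNA cannot be told apart.

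Per length, Bsg was the most abundant member in each of the 6 groups, at 116 to 216 RPKM. It encodes basigin, a surface glycoprotein that is also made by cells other than endothelium. Slc2a1 followed in 4 groups, for example at 30.2 ± 3.10 RPKM (SD, n = 3) in the WT hippocampus, with Cldn5 at 24.1 ± 2.48 RPKM and Itm2a at 20.5 ± 0.64 RPKM. Each step in that order was larger than the SDs of the pair. In the WT cortex Cldn5 at 38.0 ± 6.81 RPKM and Itm2a at 36.1 ± 6.94 RPKM stood above Slc2a1 at 28.4 ± 2.34 RPKM, and Cldn5 and Itm2a did not differ beyond their SDs. The lowest members were not the same in each tissue: Slco1a4, Ly6a and Ly6c1 were at or below 0.149 RPKM in the MGE. Flt4 (0.293 RPKM) and Sox7 (0.378 RPKM) were lowest in the WT hippocampus, and Flt4 (0.201 RPKM) and Vwf (0.435 RPKM) in the HET hippocampus. The number of members under 1 RPKM was 10 in the WT MGE, 9 in the WT cortex and 6 in the WT hippocampus.

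**Figure D1:**
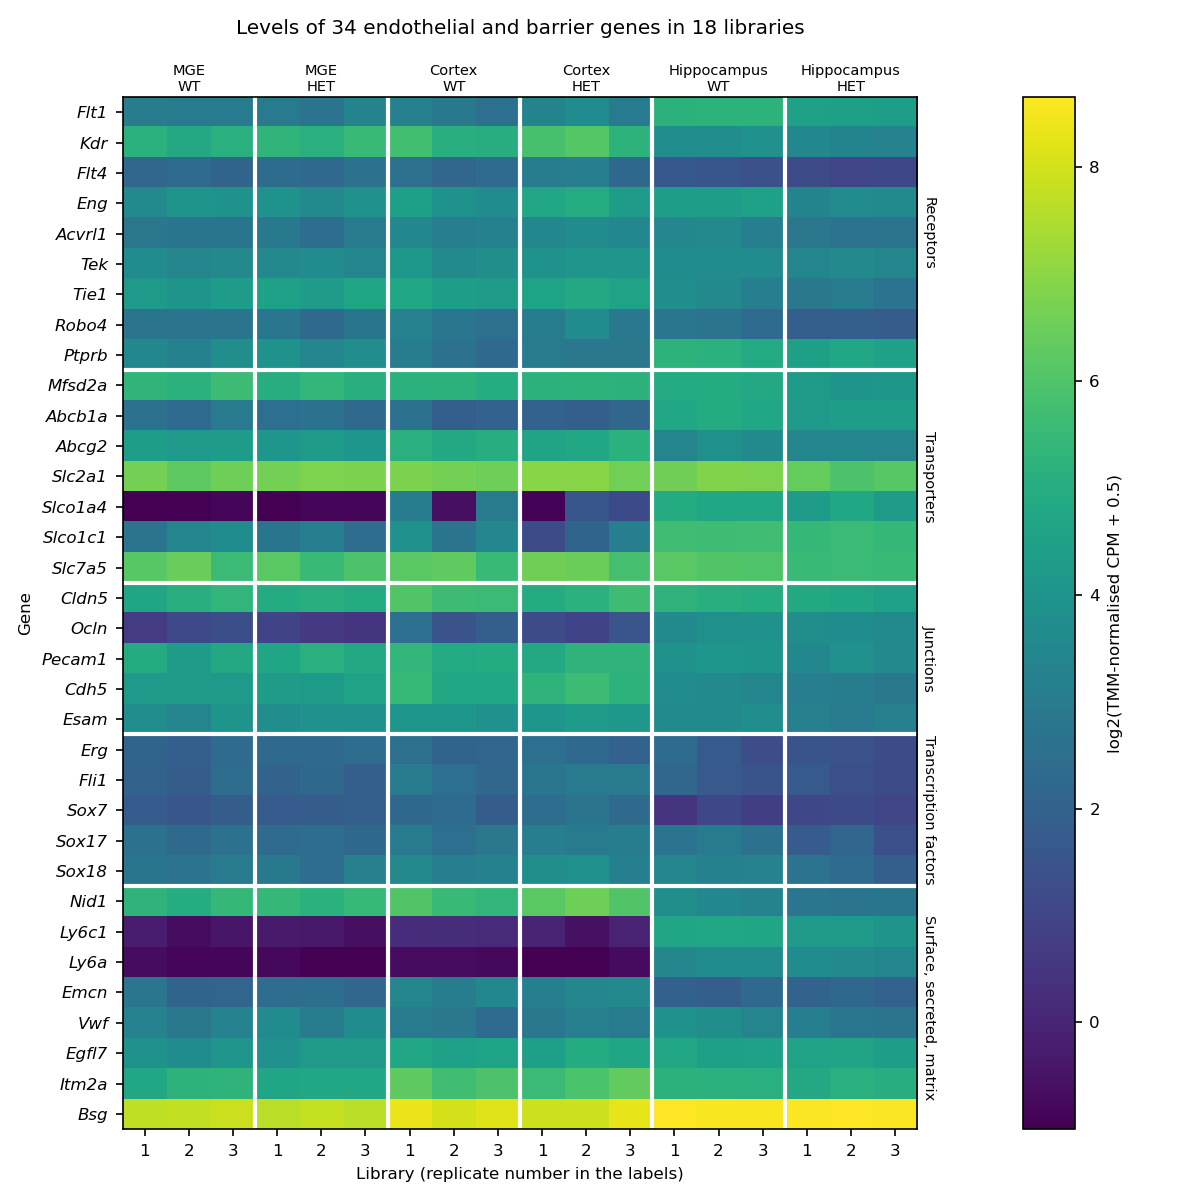
Levels of the 34 members in the 18 libraries as log2(TMM-normalised CPM + 0.5), 1 row per gene, ordered by role, and 1 column per library, grouped by tissue and genotype. Bsg is bright in every column, Slco1a4, Ly6c1 and Ly6a are near the bottom of the scale in the MGE and mid-scale in the hippocampus, and many rows are darker in the HET than in the WT hippocampus.

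Between the P45 hippocampus and the E13.5 cortex the members split. Flt1, Ptprb, Abcb1a, Slco1c1, Ocln, Ly6c1, Ly6a and Bsg were higher in the hippocampus in both genotypes, while 4 of the 5 junction proteins, Sox7, Fli1 and Kdr were among those lower in both. In WT, 10 of 34 members were higher and 13 lower (edgeR quasi-likelihood test). Of all 15448 genes tested, 82.0% were called, 41.1% higher and 40.9% lower, so the share of members called, 23 of 34, was not above that of all genes. The WT groups did not overlap for 10 members higher and 14 lower in the hippocampus, beside 84.8% of all genes in either direction. Lack of overlap between these tissues was therefore common and does not set a member apart. In HET, 9 were higher and 23 lower, beside 78.8% of all genes called, 38.8% higher and 39.9% lower. The WT and HET comparisons share no library, and 8 members were higher and 13 lower in both. The share of all genes called alike in both genotypes was not computed for any pair of tissues. Counts of members called in both are therefore a description and no support for the list. Among the higher calls, Ly6a in both genotypes and Ly6c1 and Slco1a4 in HET were tested only because of their hippocampal counts. Hippocampus and cortex differ in age and in region, which cannot be told apart here. Markers of other cells differed as well, in WT from 544 to 948 CPM in the cortex to 119 to 146 CPM in the hippocampus for the 12 fibroblast and meninges markers, 11 of them lower and 1 higher. The 10 astrocyte markers went from 570 to 649 CPM to 4745 to 5219 CPM, all higher, and the 12 microglia and macrophage markers from 86.2 to 140 CPM to 441 to 492 CPM, 9 of them higher and 1 lower. Their part in the members' differences was not tested.

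Among the receptors, Ptprb, an endothelial tyrosine phosphatase that restrains Tek, had 7.99, 5.56 and 4.44 CPM in the WT cortex and 37.2, 35.1 and 29.3 CPM in the WT hippocampus. Flt1 had 8.69, 6.91 and 5.24 CPM in the WT cortex and 36.8, 37.5 and 37.9 CPM in the WT hippocampus. Both were far above the cortex in every hippocampal library, with log2 fold changes of 2.55 (SE 0.20, adjusted p = 2.09e-06) and 2.48 (SE 0.16, adjusted p = 1.48e-07). Kdr, the signalling receptor for the same ligand as Flt1, went the other way, from 52.3, 33.6 and 31.7 CPM to 13, 12.8 and 14.1 CPM. Tie1 had 27.1, 20.9 and 19.2 CPM in the WT cortex and 12.7, 11.1 and 8.42 CPM in the WT hippocampus. These groups did not overlap either, and the log2 fold changes were -1.50 for Kdr (SE 0.18, adjusted p = 5.47e-05) and -1.0 for Tie1 (SE 0.18, adjusted p = 5.15e-04). Flt4 was also lower in both genotypes. Tek, Acvrl1 and Robo4 had WT fold changes of -0.15, 0.16 and -0.24 that did not pass the threshold.

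Among the transporters, Abcb1a, the P-glycoprotein drug efflux pump, had 5.73, 3.33 and 3.61 CPM in the WT cortex and 27.3, 30.2 and 27 CPM in the WT hippocampus. Slco1c1, a thyroxine carrier, had 14.2, 6.04 and 10.5 CPM in the WT cortex and 50.8, 49.6 and 51.4 CPM in the WT hippocampus. Both rose in every hippocampal library, by log2 fold changes of 2.79 (SE 0.19, adjusted p = 3.33e-07) and 2.36 (SE 0.26, adjusted p = 8.98e-05). Reads of Abcb1a could be shared with its close paralog Abcb1b, so its counts are uncertain to that extent. Slco1a4, an organic anion carrier, had 7.81, 0.161 and 7.40 CPM in the WT cortex and 30.2, 27.2 and 26.4 CPM in the WT hippocampus. The WT cortex libraries were far apart, and the log2 fold change of 2.51 (SE 0.93, adjusted p = 0.0552) did not pass. In HET, where the cortex libraries had 1, 74 and 62 counts, a call was made (3.97, SE 0.71, adjusted p = 9.12e-04), but in both genotypes the gene met the filter on low counts only through the hippocampus. Abcg2, another efflux pump, had 34.1, 27.6 and 31.6 CPM in the WT cortex and 9.92, 13.8 and 11.8 CPM in the WT hippocampus, a fall of the opposite direction to Abcb1a (log2 fold change -1.33, SE 0.13, adjusted p = 5.00e-06). Slc2a1, Slc7a5 and Mfsd2a had WT fold changes of 0.15, 0.09 and -0.17, none past the threshold, and were at 106, 67.3 and 29.1 CPM in the WT hippocampus. Mfsd2a had 35.3, 36.6 and 30.7 CPM in the WT cortex and 29.3, 30.3 and 27.7 CPM in the WT hippocampus, lower in each hippocampal library by a small margin.

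Among the junction proteins, Ocln, occludin of the tight junction, had 5.25, 2.29 and 3.25 CPM in the WT cortex and 12, 14.1 and 15.2 CPM in the WT hippocampus. It was the single junction member that rose, by 1.99 on the log2 scale (SE 0.26, adjusted p = 7.08e-05). Cdh5, the cadherin of endothelial adherens junctions, had 43.3, 27.4 and 27.1 CPM in the WT cortex and 12.1, 11.9 and 10.3 CPM in the WT hippocampus. Pecam1, a junctional adhesion molecule, had 40.5, 29.6 and 30.3 CPM and then 15.1, 16.2 and 15.6 CPM. Both fell without overlap, with log2 fold changes of -1.45 (SE 0.19, adjusted p = 7.08e-05) and -1.04 (SE 0.13, adjusted p = 2.22e-05). Cldn5 fell as well (-0.60, SE 0.13). Esam, an adhesion molecule of endothelial junctions, had 16.5, 16.3 and 14.2 CPM in the WT cortex and 11.4, 11.7 and 12.8 CPM in the WT hippocampus, a smaller fall without overlap (-0.33, SE 0.11).

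Of the transcription factors none was higher in the hippocampus in either genotype. Sox7 had 4.22, 4.65 and 3.07 CPM in the WT cortex and 0.889, 1.62 and 1.23 CPM in the WT hippocampus. Fli1 had 7.66, 5.33 and 4.08 CPM in the WT cortex and 4, 2.73 and 2.36 CPM in the WT hippocampus. Sox7 did not overlap between the tissues (log2 fold change -1.61, SE 0.31, adjusted p = 6.19e-04), and Fli1 did not overlap by a small margin (-0.85, SE 0.29, adjusted p = 0.0198). Sox18 had 11.1, 8.27 and 9.10 CPM in the WT cortex and 9.92, 9.02 and 9.18 CPM in the WT hippocampus. Sox17 had 7.51, 5.26 and 6.64 CPM in the WT cortex and 5.92, 7.11 and 5.50 CPM in the WT hippocampus. Both overlapped in WT. Sox17 and Sox18 had WT fold changes of -0.01 (SE 0.19) and 0.04 (SE 0.15) and were lower in the HET hippocampus than in the HET cortex, at -1.38 (SE 0.25, adjusted p = 9.47e-04) and -1.33 (SE 0.27, adjusted p = 0.00193). Acvrl1, Tek, Robo4, Mfsd2a, Slc2a1, Slc7a5 and Erg were likewise lower in the HET comparison and not called in the WT comparison. Eng was higher in the WT hippocampus than in the WT cortex (0.43, SE 0.18, adjusted p = 0.0467). That call was near the threshold, and WT cortex library 1, at 21.2 CPM, lay within the WT hippocampal range of 20.0 to 22.4 CPM. In HET, Eng was called in the opposite direction, lower in the hippocampus than in the cortex (-1.19, SE 0.19, adjusted p = 4.64e-04). That contrast between genotypes was tested as the difference of the genotype effect between tissues, given after the genotype comparisons.

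Among the other proteins, Ly6a and Ly6c1 encode small surface antigens of the Ly6 family and made the widest step. Ly6c1 had 0.664, 0.711 and 0.650 CPM in the WT cortex, from 22, 22 and 18 counts, and 25.8, 26.4 and 25.0 CPM in the WT hippocampus. Ly6a had 0 to 5 counts in each of the 12 embryonic libraries, and 10.5, 12 and 12.2 CPM in the WT hippocampus. Some members passed the filter on low counts, about 10 counts in each of 3 libraries, only through the hippocampus, where they are high, so that a difference there was bound to follow. These were Ly6a and Slco1a4 against the cortex and the MGE in both genotypes, and Ly6c1 against the MGE in both genotypes and against the cortex in HET. Their calls are no support for the counts given. Ly6 genes lie in a cluster of near copies, and how reads shared between them were counted is not given in the sources used here. Nid1, a basement membrane linker, went from 65.5, 46.2 and 40.7 CPM in the WT cortex to 13.1, 11 and 9.59 CPM in the WT hippocampus. Emcn, a sialomucin of capillaries and veins, went from 9.89, 8.14 and 10.8 CPM to 3.49, 3.28 and 4.46 CPM. Neither overlapped, at -2.12 (SE 0.20, adjusted p = 1.29e-05) and -1.30 (SE 0.18, adjusted p = 7.71e-05). Vwf, the clotting glycoprotein of endothelial granules, was higher in the WT hippocampus (1.13, SE 0.21, adjusted p = 4.70e-04), and its HET fold change was -0.11 (SE 0.19, adjusted p = 0.607).

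**Figure D2:**
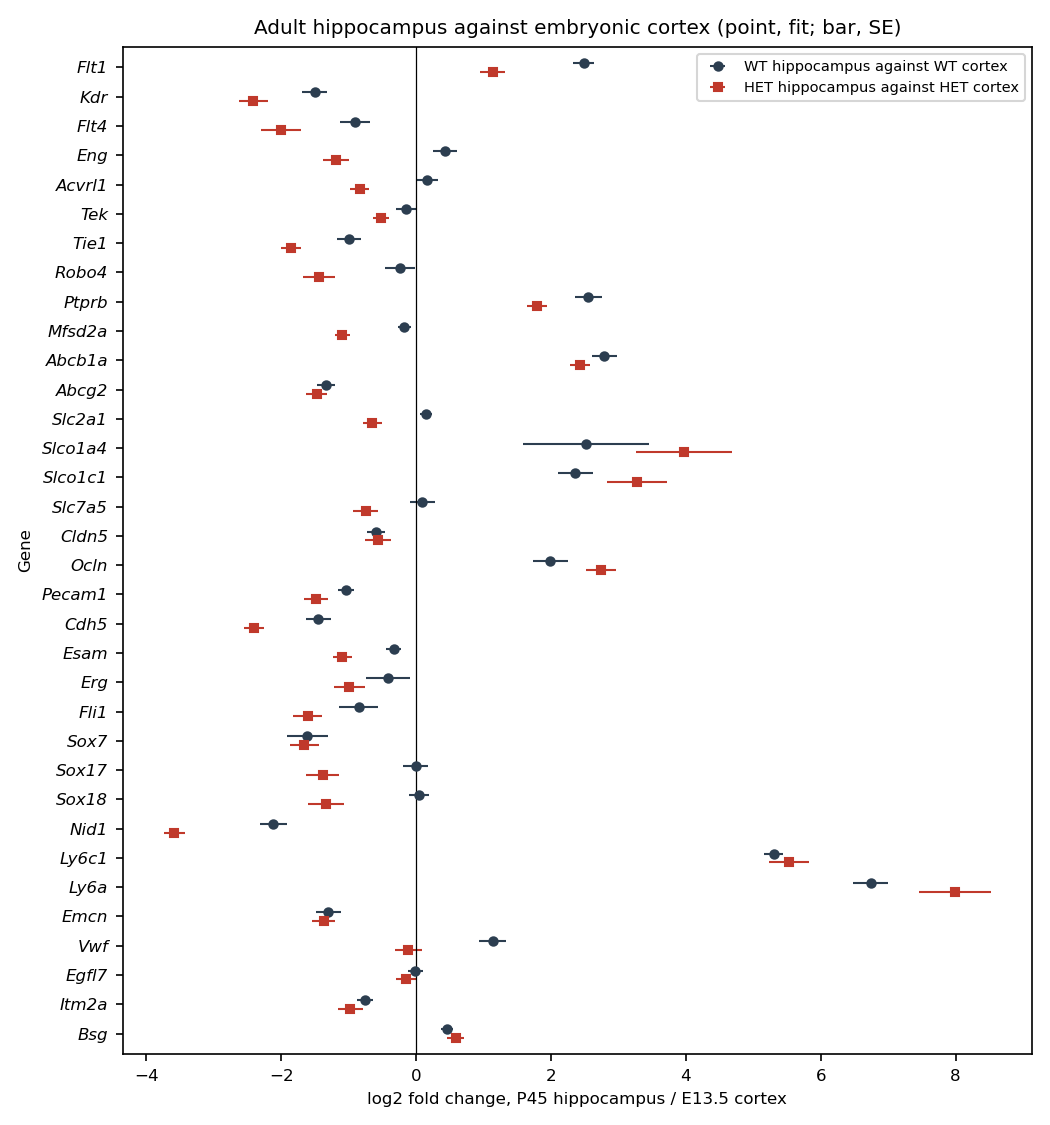
Log2 fold changes of the 34 members in P45 hippocampus against E13.5 cortex, fitted separately in WT (circles) and HET (squares), with bars of 1 SE. Ly6a and Ly6c1 lie farthest to the right in both genotypes and Nid1 farthest to the left, while Eng, Vwf and several receptors lie to the left of their WT point in HET.

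Against the MGE, the hippocampus had 14 members higher and 9 lower in WT and 11 higher and 17 lower in HET, where 83.7% of all genes were called in each genotype. By direction the shares of all genes were 41.9% higher and 41.7% lower in WT, and 41.9% higher and 41.8% lower in HET. The 10 members higher in both were Flt1, Ptprb, Abcb1a, Slco1a4, Slco1c1, Ocln, Ly6c1, Ly6a, Egfl7 and Bsg, of which Slco1a4, Ly6c1 and Ly6a were tested only because of their hippocampal counts. Egfl7, a secreted protein of the vessel matrix, had log2 fold changes of 0.69 (SE 0.13) in WT and 0.47 (SE 0.12) in HET. Kdr, Flt4, Tie1, Mfsd2a, Abcg2, Pecam1, Cdh5, Sox7 and Nid1 were lower in both genotypes. Here too the share of all genes called in both was not computed. Hippocampus and MGE differ in age and in region together. In HET they also differ in sex-linked RNA, with Y-linked RNA in all MGE libraries and Xist in all hippocampal libraries. These differences cannot be told apart here.

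Between the 2 embryonic tissues, most members that differed were lower in the MGE. In WT, 1 of the 32 members tested was higher and 11 were lower, beside 49.4% of all genes called, 24.9% higher and 24.5% lower. The 11 include Ly6c1, which met the filter only through the cortex. In HET, 1 was higher and 12 lower, beside 25.9% of all genes, 11.4% higher and 14.6% lower. Without HET MGE library 3 the HET comparison called 7 members, beside 14.6% of all genes. Acvrl1, Abcg2, Cdh5, Emcn, Egfl7 and Itm2a were lower in both genotypes, and Ptprb was the member higher in both, by 0.87 (SE 0.23) and 0.85 (SE 0.18) on the log2 scale. Cdh5 had 18.2, 19.1 and 17.8 CPM in the WT MGE against 27.1 to 43.3 CPM in the WT cortex. The embryonic groups also differed in sex-linked RNA, given with the genotype comparisons below, and its part was not tested. They differed in markers of other cells as well. Summed fibroblast and meninges markers (12 genes, none at 0 in a group) were 74.0 to 90.1 CPM in the WT MGE and 544 to 948 CPM in the WT cortex, and their part in these differences was not tested.

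In the P45 hippocampus, 14 of the 34 members were lower in HET than in WT and none was higher. Over all 15283 genes 1.07% were called, 0.811% lower and 0.262% higher, or 124 and 40 genes. At an unadjusted p under 0.05 there were 24 members, beside 15.6% of all genes. With upper-quartile scaling 76 genes were lower and 48 higher, 0.811% of all genes together, and 8 members were lower and 0 higher. In all, 31 of the 34 members had a fold change below 0, with a median of -0.53 on the log2 scale, where the median of all genes was 0.005. The HET libraries lay below all WT libraries for 24 members and above for none, beside 11.7% and 9.11% of all genes. The called members were 4 of 9 receptors, 4 of 7 transporters, 1 of 5 junction proteins, 2 of 5 transcription factors and 3 of 8 other proteins.

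**Figure D3:**
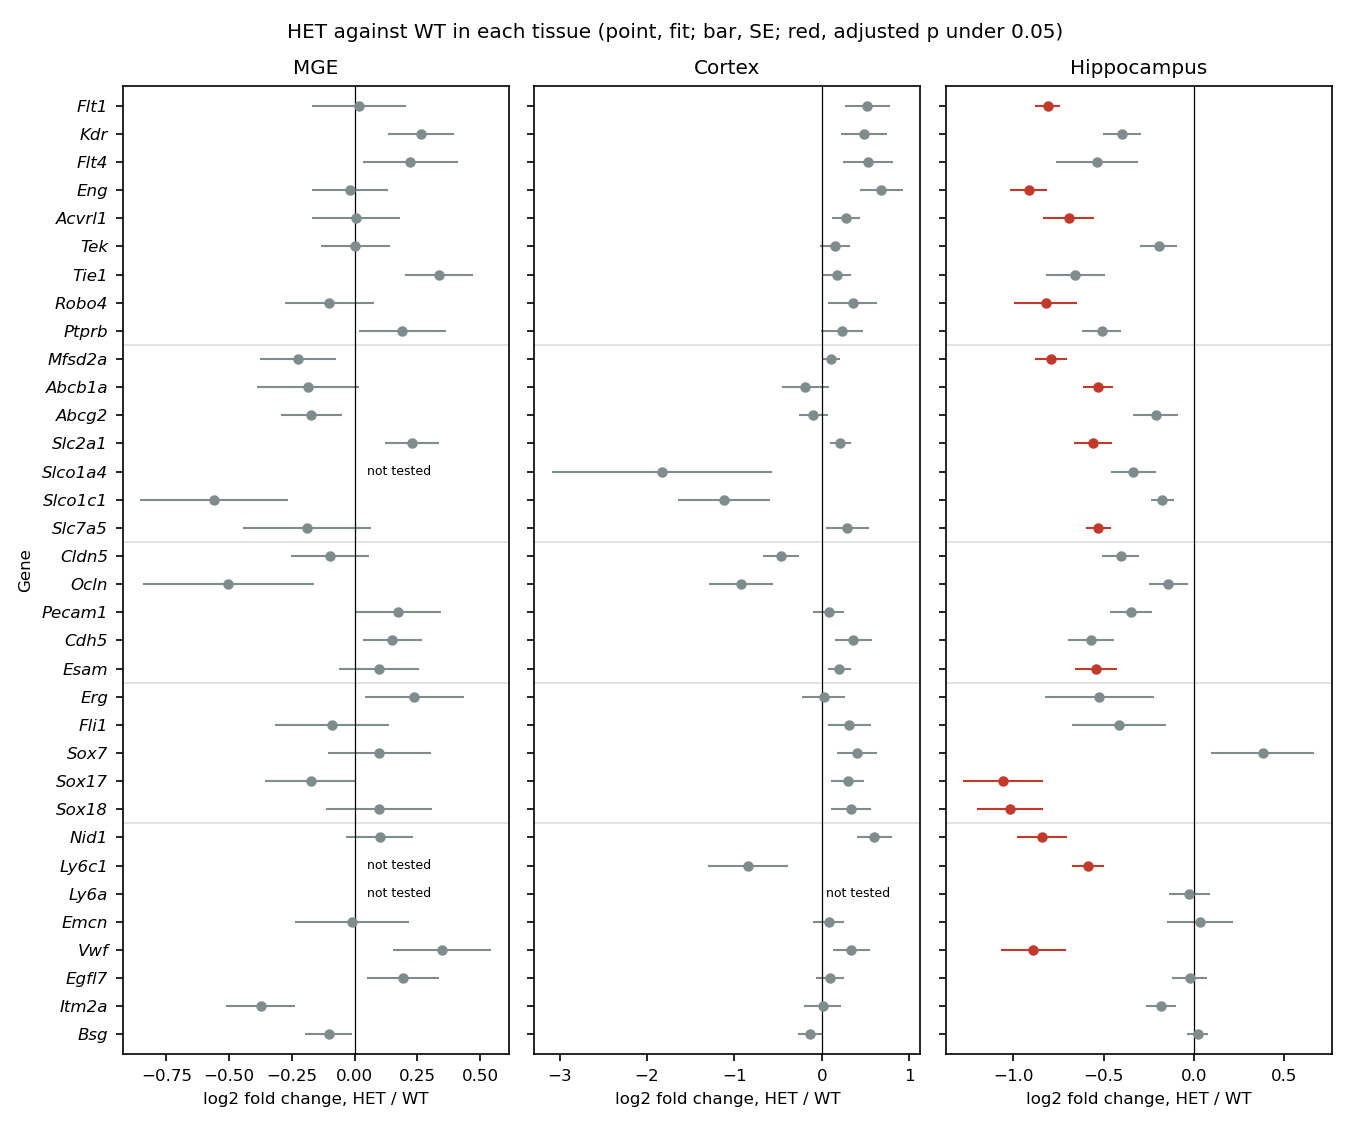
Log2 fold changes of HET against WT for the 34 members in each tissue, with bars of 1 SE and the members with an adjusted p under 0.05 in red. The horizontal scale differs between the panels. The 14 red points are all in the hippocampus panel, left of 0.

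The receptor with the smallest p was Flt1, with 36.8, 37.5 and 37.9 CPM in WT and 22.3, 21.3 and 20.3 CPM in HET. Eng had 20.4, 20.0 and 22.4 CPM in WT and 9.75, 12 and 11.4 CPM in HET. The libraries of a genotype lay close together and far from those of the other. The log2 fold changes were -0.81 for Flt1 (SE 0.07, adjusted p = 2.19e-04) and -0.91 for Eng (SE 0.10, adjusted p = 0.00188). Acvrl1, which signals with Eng, had 10.6, 11.1 and 8.36 CPM in WT and 6.62, 5.97 and 6.01 CPM in HET. Robo4, a stabilising receptor of vessels, had 6.5, 6.0 and 4.71 CPM in WT and 3.31, 3.28 and 3.14 CPM in HET. Neither overlapped, although WT library 3 was nearer to the HET libraries in both, and the fold changes were -0.69 (SE 0.14, adjusted p = 0.0434) and -0.82 (SE 0.17, adjusted p = 0.0482). The other receptors were Tie1 at -0.66, Flt4 at -0.54, Ptprb at -0.51, Kdr at -0.40 and Tek at -0.20, with adjusted p of 0.0538 (Ptprb) to 0.374 (Tek).

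Of the transporters, Mfsd2a, which carries docosahexaenoic acid and restrains transcytosis, had 29.3, 30.3 and 27.7 CPM in WT and 18.5, 15.3 and 16.6 CPM in HET. Slc7a5, the carrier of large neutral amino acids, had 72.7, 65.7 and 63.4 CPM in WT and 46.6, 47.5 and 45.4 CPM in HET. Both sets were well apart, at -0.79 (SE 0.09, adjusted p = 0.00223) and -0.53 (SE 0.07, adjusted p = 0.00482). Abcb1a had 27.3, 30.2 and 27 CPM in WT and 18.3, 20.1 and 20.0 CPM in HET. Slc2a1 had 93.6, 114 and 109 CPM in WT and 81.7, 62.1 and 71.3 CPM in HET. The gap was wide for Abcb1a (-0.53, SE 0.08, adjusted p = 0.0122) and narrower for Slc2a1 (-0.56, SE 0.10, adjusted p = 0.0456). Slco1a4 at -0.34, Abcg2 at -0.21 and Slco1c1 at -0.17 did not pass.

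Esam was the junction member called, with 11.4, 11.7 and 12.8 CPM in WT and 8.68, 7.20 and 8.74 CPM in HET (-0.54, SE 0.12, adjusted p = 0.0491). It did not overlap, and it lay nearest to the threshold among the 14. Cdh5 (-0.57, adjusted p = 0.0579) and Cldn5 (-0.41, adjusted p = 0.0932) were just outside it, and Pecam1 (-0.35) and Ocln (-0.14) farther off. Of the transcription factors, Sox18 had 9.92, 9.02 and 9.18 CPM in WT and 5.87, 4.67 and 3.32 CPM in HET. Sox17 had 5.92, 7.11 and 5.50 CPM in WT and 2.88, 3.92 and 2.07 CPM in HET. These were the largest fold changes of the list, -1.02 (SE 0.18, adjusted p = 0.0245) and -1.06 (SE 0.22, adjusted p = 0.0461). Sox7, of the same SOX subgroup, had 0.889, 1.62 and 1.23 CPM in WT and 1.6, 1.74 and 1.52 CPM in HET, at 0.38 (SE 0.29, adjusted p = 0.565). Erg and Fli1 were at -0.52 and -0.41 with overlapping libraries.

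Of the other proteins, Nid1 had 13.1, 11 and 9.59 CPM in WT and 6.44, 6.04 and 6.32 CPM in HET. Vwf had 15.2, 13.53 and 10.1 CPM in WT and 8.54, 6.41 and 6.01 CPM in HET. Ly6c1 had 25.8, 26.4 and 25.0 CPM in WT and 17.8, 18 and 15.5 CPM in HET. The 3 fell without overlap, by log2 fold changes of -0.84 (SE 0.14, adjusted p = 0.0161), -0.89 (SE 0.18, adjusted p = 0.0480) and -0.59 (SE 0.09, adjusted p = 0.00907). Itm2a, a type II membrane protein, had 36.8, 35.6 and 34.6 CPM in WT and 27.9, 34.4 and 31.8 CPM in HET, lower in HET without overlap, but its fold change of -0.18 did not pass. The remaining 4 proteins of this role had values near 0 and overlapping libraries: Ly6a at -0.03, Egfl7 at -0.02, Bsg at 0.02 and Emcn at 0.03. Egfl7 and Emcn are endothelial markers, and their WT levels of 23.5 ± 2.36 and 3.74 ± 0.63 CPM stood beside 23.0 ± 1.95 and 3.82 ± 0.27 CPM in HET (SD, n = 3).

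**Figure D4:**
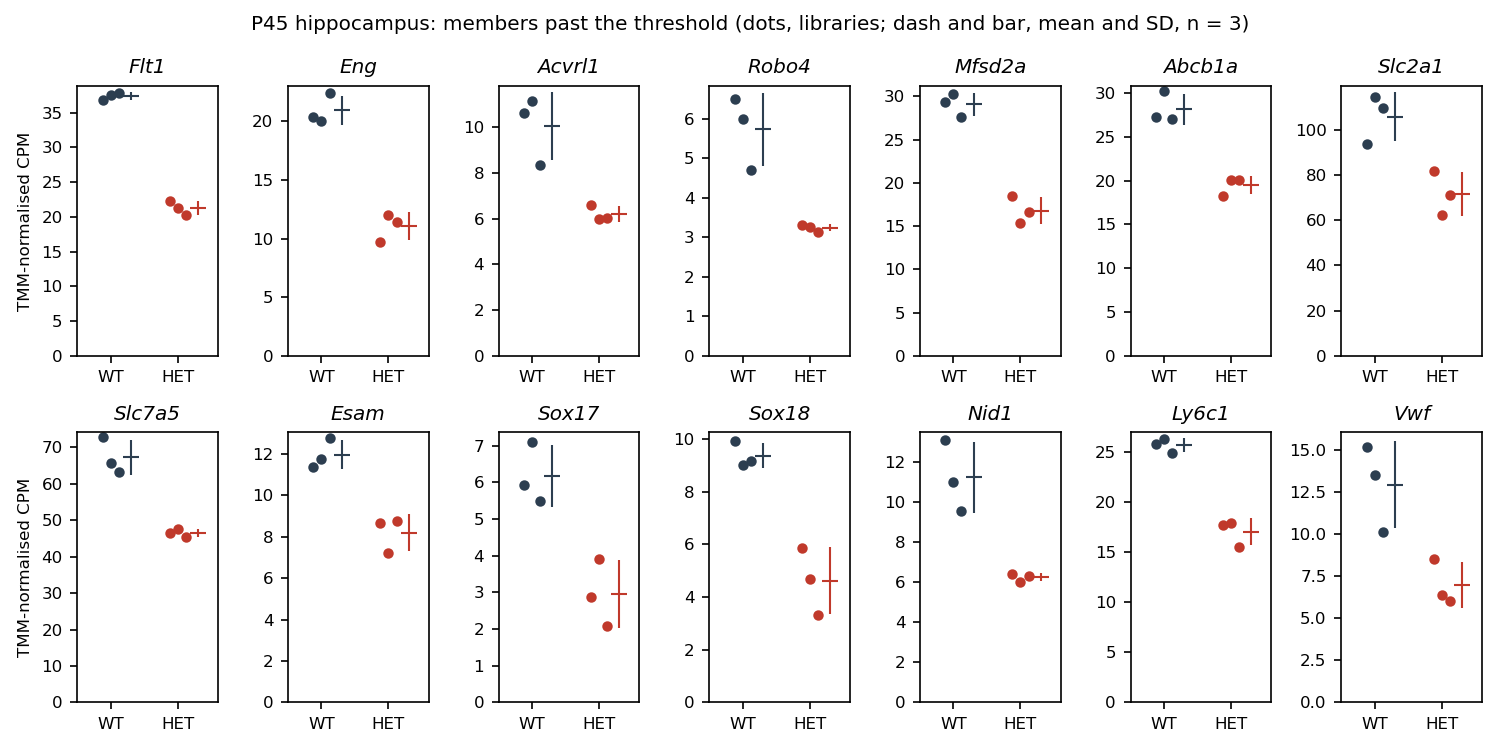
TMM-normalised CPM of the 14 members called in the P45 hippocampus, with 1 dot per library, a dash and bar for the mean and SD (n = 3), and each vertical axis starting at 0. In every panel the 3 HET dots lie below the 3 WT dots, with the narrowest gaps for Slc2a1, Vwf and Acvrl1.

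The number of called members moved with the method and with the libraries. It was 18 by DESeq2, beside 3.30% of all genes, and 9 by limma-voom, beside 0.752%. It was 1, Mfsd2a, beside 0.0682%, when a single fit shared its estimate of the spread over all 18 libraries and tissues. Without WT library 2 it was 4 (Eng, Flt1, Mfsd2a and Slc7a5), beside 0.239%, and without HET library 3 it was 3 (Eng, Flt1 and Mfsd2a), beside 0.149%. The fold changes of the 14 stayed below 0 in each of the 14 alternatives run, and Mfsd2a was called in each of them, with an adjusted p of at most 0.0311.

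In the E13.5 cortex none of the 33 members tested passed the threshold, and 0% of the 14757 genes did, with 3 members and 1165 genes (7.89%) at an unadjusted p under 0.05. DESeq2 and limma-voom also called 0 members. Fold changes were above 0 for 25 members, with a median of 0.20 beside 0.01 for all genes. All 9 receptors were above 0 under each of the 3 scalings run, all 5 transcription factors under TMM and RLE scaling but 4 of 5 under upper-quartile scaling, and 4 of 7 transporters were below 0. The lowest p were those of Nid1 (0.60, SE 0.20), Eng (0.68, SE 0.25) and Ocln (-0.92, SE 0.37), each with an adjusted p of 0.578. Nid1 had 65.5, 46.2 and 40.7 CPM in WT and 72.8, 91.7 and 64.4 CPM in HET. Eng had 21.2, 15.1 and 12.2 CPM in WT and 27, 30.8 and 19.3 CPM in HET. WT library 1 overlapped the HET libraries for both. Without overlap between genotypes, Sox17 was higher, with 7.51, 5.26 and 6.64 CPM in WT and 8.27, 7.57 and 7.73 CPM in HET, and Ly6c1 lower, with 5 to 22 counts a library and meeting the filter only through WT, beside 4.69% and 6.29% of all genes. The libraries of this tissue stood apart from each other: 31 of the 34 members were above the tissue mean in WT library 1, and 6 and 9 in WT libraries 2 and 3. The Y-linked Ddx3y was 67.9 CPM in WT library 1 and 60.8 and 55.8 CPM in HET libraries 1 and 3, and 0 to 0.0683 CPM in the other cortex libraries. The part of sex in these values was not tested. Summed fibroblast and meninges markers were 544 to 948 CPM in WT and 731 to 1040 CPM in HET. Pericyte and smooth muscle markers were 190 to 260 and 222 to 269 CPM, and astrocyte markers 570 to 649 and 646 to 668 CPM. Microglia and macrophage markers were 86.2 to 140 CPM in WT and 75.2 to 123 CPM in HET. Each of these sums overlapped between genotypes, and their part in the members' values was not tested. Without HET library 3, 5 members were higher (Eng, Flt1, Flt4, Slc2a1 and Sox18) and 2 lower (Cldn5 and Slco1c1), where 30.7% of all genes were called.

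Slco1a4 and Slco1c1 varied widely between the cortex libraries of a genotype, with CVs of 84.0% and 40.0% in WT and 89.2% and 70.8% in HET, as did Ocln in WT (41.9%) and Ly6a, at 0 to 4 counts, in HET (173%). Slco1a4 had 7.81, 0.161 and 7.40 CPM in WT and 0.0319, 2.53 and 1.73 CPM in HET. Slco1c1 had 14.2, 6.04 and 10.5 CPM in WT and 1.85, 3.83 and 8.29 CPM in HET. Ttr, the transthyretin that choroid plexus epithelium makes in bulk, had 1422, 0.420 and 1116 CPM in WT and 4.63, 217 and 408 CPM in HET. The 4 libraries with Slco1a4 above 1 CPM were the 4 with Ttr above 200 CPM, and the summed 11 choroid plexus markers, none at 0 in a group, were 23.9 to 1649 CPM in WT and 26.4 to 488 CPM in HET. The part of choroid plexus tissue in these levels was not tested. The fold changes, -1.83 (SE 1.26) for Slco1a4 and -1.12 (SE 0.53) for Slco1c1, did not pass the threshold (adjusted p = 0.590 and 0.578).

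**Figure D5:**
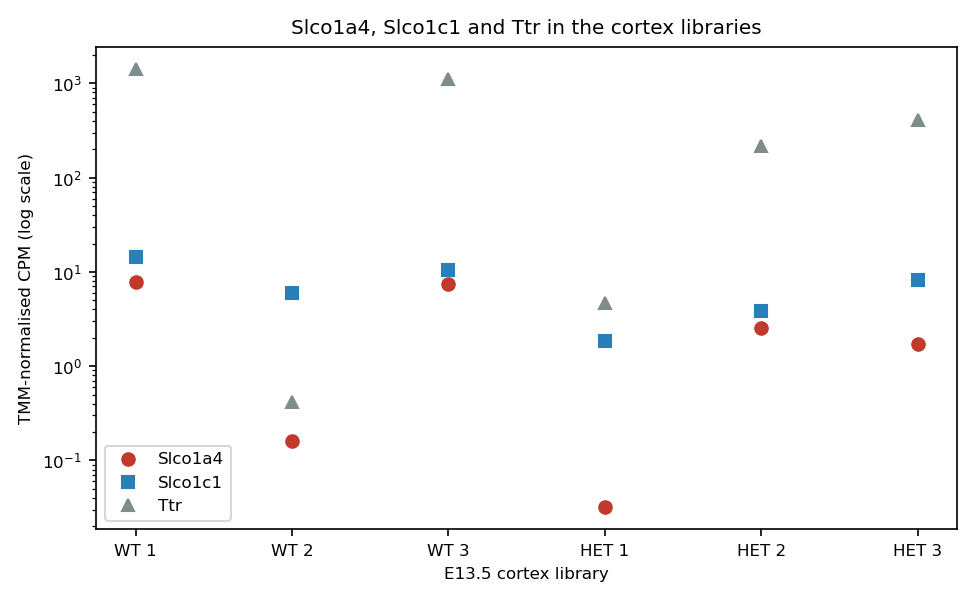
TMM-normalised CPM, on a log scale, of Slco1a4, Slco1c1 and the choroid plexus marker Ttr in the 6 E13.5 cortex libraries. Slco1a4 and Ttr are lowest in WT 2 and HET 1, at 0.161 and 0.0319 CPM for Slco1a4 and at 0.420 and 4.63 CPM for Ttr.

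In the E13.5 MGE none of the 31 members tested passed, beside 0.0479% of 14624 genes (7 genes), with 2 members and 4.51% of all genes at an unadjusted p under 0.05 and 0 members called by DESeq2 or limma-voom. The other 3 members, Slco1a4, Ly6c1 and Ly6a, had too few counts: 0, 0 and 2 in WT and 0, 2 and 2 in HET for Slco1a4. Fold changes were centred on 0, with 17 of 31 above it and a median of 0.01. The lowest p were those of Itm2a (-0.37, SE 0.14), Tie1 (0.34, SE 0.13) and Slc2a1 (0.23, SE 0.11), each with an adjusted p of 0.980. Tie1 had 18.2, 15.7 and 19.5 CPM in WT and 22.4, 19.8 and 25.9 CPM in HET. Slc2a1 had 98.9, 76.1 and 92.4 CPM in WT and 99.7, 110 and 107 CPM in HET. These 2 did not overlap between genotypes and no member was lower without overlap, beside 5.13% of all genes higher and 5.12% lower. The MGE groups also differed in sex-linked RNA: Xist was 1737 to 1920 CPM in WT and 0.50 to 1.09 CPM in HET, and the Y-linked Ddx3y was 0 to 0.0648 CPM in WT and 48.2 to 63.1 CPM in HET. Genotype and sex cannot be told apart in this tissue, and the X-linked Itm2a had 27, 37.3 and 38.2 CPM in WT and 25.7, 26.8 and 27.3 CPM in HET, with a small overlap. In the hippocampus Xist was 518 to 672 CPM in every library.

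The difference of the genotype effect between tissues was tested in 1 fit of all 18 libraries and 16125 genes. Where the MGE is part of a difference, its genotype effect cannot be told apart from sex. No member passed for cortex against MGE (0% of all genes), hippocampus against MGE (0.00620%) or hippocampus against cortex (0.0124%). At an unadjusted p under 0.05 there were 1, 16 and 17 members, beside 7.01%, 7.36% and 12.8% of all genes. The smallest adjusted p, 0.0938, were those of Eng (-1.59, SE 0.27) and Nid1 (-1.43, SE 0.25) for hippocampus against cortex. Both were below WT in the HET hippocampus and had cortex fold changes above 0. Mfsd2a (-0.89, SE 0.18) and Flt1 (-1.32, SE 0.27) followed with an adjusted p of 0.158. Without cortex HET library 3 the same test called 2 members higher and 15 lower, where 17.1% of all genes were called. Without cortex WT library 1 it called 3 lower, Eng, Cdh5 and Nid1, beside 0.0613% of all genes.

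Other genes of the same pathways and of vessels were read from lists made alongside the members. In the hippocampus, where 0.811% of all genes were lower and 0.262% higher, of 18 Wnt7 and Norrin pathway genes 3 were lower: the ligand Wnt7a, with 24.5, 22.3 and 23.5 CPM in WT and 15.7, 15 and 13.3 CPM in HET (-0.67, SE 0.09, adjusted p = 0.00530), the Wnt target and antagonist Apcdd1 (-0.35, SE 0.07, adjusted p = 0.0357) and Sox17, which is also a member. Of 24 other pan-endothelial genes tested 2 were lower, the transcription factor Gata2 (-1.36, SE 0.22, adjusted p = 0.0161) and the adhesion receptor Eltd1 (-0.76, SE 0.16, adjusted p = 0.0491), and 19 had a fold change below 0, with a median of -0.16. None of 8 genes of VEGF ligands and co-receptors, 6 of angiopoietins, 10 of ALK1 signalling, 10 of Notch signalling in vessels, 9 of sprouting tip cells, 4 of leaky vessels or 18 other junction genes passed. Of 19 other barrier transporters, the sphingosine phosphate carrier Spns2 was lower (-0.39, SE 0.07, adjusted p = 0.0293) and the transferrin receptor Tfrc higher (0.32, SE 0.07, adjusted p = 0.0480). Notch4, an endothelial Notch receptor, was at -0.72 (SE 0.16, adjusted p = 0.0579).

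Markers of other cells were set beside the hippocampal result. Of 14 pericyte and smooth muscle genes tested 1 was lower, the proteoglycan Cspg4 (-0.59, SE 0.08, adjusted p = 0.00573), with 12 below 0, and the summed list of 15 was 205 to 222 CPM in WT and 171 to 186 CPM in HET. Cspg4 also marks oligodendrocyte precursors. The 12 microglia and macrophage markers summed to 441 to 492 CPM in WT and 456 to 482 CPM in HET, the 10 astrocyte markers to 4745 to 5219 and 4725 to 5002 CPM, and the 12 fibroblast and meninges markers to 119 to 146 and 121 to 162 CPM, all overlapping, with none called. The 11 choroid plexus markers summed to 201 to 219 CPM in WT and 218 to 310 CPM in HET. Of the 9 tested none was called, and 6 had an unadjusted p under 0.05, beside 15.6% of all genes. Their median fold change was 0.43, opposite in sign to the members' median of -0.53. The red blood cell markers summed to 1.63 to 2.60 CPM in WT and 1.57 to 2.38 CPM in HET, with Hba-a1, Hba-a2, Hbb-bs and Hbb-bt at 0. These globins were at 0 in every group, also in the WT MGE, where the list summed to 304 to 1206 CPM. Whether they could be counted is not known, so the hippocampal sum is no measure of blood content. The part of pericytes, of choroid plexus tissue or of vessel content in the members' difference was not tested.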

How the data were processed

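Poly(A)-selected RNA of 18 libraries, made with TRIzol and NEBNext Ultra reagents per the labels' protocols, was measured in 6 groups of 3. The deposited values are raw counts per gene symbol that the authors made with FastQC, Trimmomatic, TopHat2 2.1.1, SAMtools and the mm10 build, per the submitters' processing notes, which also name DESeq2. Neither the counting program nor its annotation, strand setting or treatment of shared reads is given in the sources used here, so reads of overlapping antisense genes, of Ly6a and its Ly6 neighbours, and of Abcb1a and Abcb1b cannot be told apart. All columns of the table were used (0 unused).

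The members and gene lists were chosen with earlier results of these data known. Tests were run on the whole table in R 4.3.3 with edgeR 4.0.16: filterByExpr (minimum count 10, minimum total 15), TMM scaling and the quasi-likelihood F test, with Benjamini-Hochberg adjustment over all genes and a threshold of 0.05. Each of the 9 comparisons used the 6 libraries of its groups, and the 3 differences of the genotype effect used all 18. The SE is the log2 fold change divided by the root of F. The fit of a pair of groups was tested on simulated data for the genotype comparisons and for WT hippocampus against WT cortex. The other comparisons and the differences of the genotype effect were not simulated. RPKM used merged exon lengths from GENCODE M21 (GRCm38), and promoters are RefSeq windows on GRCm38.p6. All 34 members are named. Values of each library are given for Chd2, for the 2 largest and 2 smallest WT hippocampus against cortex fold changes of each role, for members past the threshold between genotypes and for the 3 lowest p of each genotype comparison, and other library values shown were chosen after seeing them. The tests were repeated with upper-quartile or RLE scaling, without the filter, with DESeq2 1.42.0, limma-voom (limma 3.58.1), with a replicate block, in a single fit of all 18 libraries, and without each library in turn.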

Additional observations from a re-analysis of the deposited data

Results flagged for a closer look

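For 3 members the HET libraries lay on opposite sides of the WT libraries in 2 tissues, without overlap in either. Between MGE and hippocampus these were 2 of 31 members, beside 1.47% of all 14051 genes tested in both, and between cortex and hippocampus 1 of 33, beside 1.18% of 14162. Tie1 was higher in the HET MGE (17.8 ± 1.95 CPM in WT, 22.7 ± 3.07 CPM in HET) and lower in the HET hippocampus (10.7 ± 2.14 and 6.78 ± 0.833 CPM, SD, n = 3 each). The test of the difference between the tissues gave -1.0 (SE 0.24) on the log2 scale and did not pass (edgeR adjusted p = 0.386). Slc2a1 was likewise higher in the HET MGE and lower in the HET hippocampus, and its difference of -0.79 (SE 0.17) did not pass (edgeR adjusted p = 0.362). For Tie1 and Slc2a1 alike, genotype and sex cannot be told apart in the MGE. Sox17 was higher in the HET cortex and lower in the HET hippocampus, and its difference of -1.34 (SE 0.29) did not pass (edgeR adjusted p = 0.163).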

How the results depend on the processing

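The number of members called between genotypes in the hippocampus, 14, was 8 with upper-quartile scaling, 9 by limma-voom, 1 in the single fit of 18 libraries and 3 to 13 on leaving out 1 library. Leaving out 1 library gave 0 to 7 members in the cortex, against 0, 0 to 17 for the difference of the genotype effect between hippocampus and cortex, against 0, and 7 to 18 for HET MGE against HET cortex, against 13. Over all genes, the MGE count of 7 was 33 by DESeq2 and 5 to 27 without 1 library. The cortex count of 0 was 1 with no filter, 11 by DESeq2, 4 in the single fit and 0 to 4598 without 1 library, the highest without HET library 3. The hippocampus count of 164 was 291 with no filter, 445 by DESeq2, 11 in the single fit and 23 to 292 without 1 library. For all genes past the threshold, HET MGE against HET cortex, the count of 3846 was 6612 in the single fit and 2204 to 4680 without 1 library. The causes were not tested. No value changed sign past the threshold, and of the named hippocampal genotype values 141 kept their side of the threshold and 69 lost it. The labels number the replicates alike in each group. In the genotype comparisons, deviations of same-numbered libraries had correlations of -0.25 to 0.17, and those of cortex HET library 1 and WT library 2 had 0.44. With 3 libraries in a group, such correlations cannot settle whether the numbers pair the libraries. The main fits treated them as unpaired. With a replicate block, the hippocampus had 10 members and 80 genes called, cortex and MGE 0 members, and HET MGE against HET cortex 11. Removing the GC trend of each library was an alternative chosen after seeing the data. Esam, Robo4 and Sox17 then lost their call in the hippocampus, and the median fold change of the members was -0.50. Where no share of all genes stands beside a member count in this section, the count is a description and no measure of robustness. The leave-one-out fits of the differences between tissues were also chosen after seeing the data.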
